A study of Rattus norvegicus with 54 samples.

Results

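The dual-specificity MAP kinase phosphatases of the heart were examined through 8 genes, Dusp1, Dusp3, Dusp5, Dusp6, Dusp7, Dusp8, Dusp10 and Dusp16, of the 10257 genes of a table of transcript levels in 54 rat hearts. The 8 genes were chosen by family and by their presence in that table, which holds only genes above 1 fpkm in at least 18 rats, and with the 24 h rhythm of Dusp5 and Dusp7 in control rats already known. Levels are in fpkm, fragments per kilobase of transcript, scaled to the mapped fragments of the library, a unit per length that allows genes to be compared. The 54 male Wistar rats, kept in 12 h of light and 12 h of dark, formed 3 groups of 18. Control (C) rats stayed undisturbed with free food. Shift worker (W) rats were placed in a slowly turning drum from ZT2 to ZT10, 8 h of the resting phase, on Monday to Friday for 5 weeks, with free food throughout, also in the drum (ZT0 is lights on). Shift workers with restricted feeding (WRF) did the same work and had food only outside work hours on work days. All rats were killed on a Saturday, a day without work and with free food, at ZT1, ZT5, ZT9, ZT13, ZT17 or ZT21, with 3 rats per group and time. Each group came as 3 series of 6 rats with 1 rat at each time, and the heart was crushed whole, so the share of atrial tissue could vary between samples. The data set holds transcripts only, not phosphatase protein or MAP kinase phosphorylation.

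MAP kinases (ERK, JNK and p38) are switched on by phosphorylation of a threonine and a neighbouring tyrosine, and the dual-specificity MAP kinase phosphatases remove both phosphates and so end the signal. Several are themselves induced by the kinases they silence, which makes a negative feedback loop. Dusp1 is a nuclear phosphatase of all 3 kinase classes and an immediate early gene, transcribed within minutes of a stimulus. Dusp5 is its nuclear relative specific for ERK, Dusp6 and Dusp7 act on ERK in the cytoplasm, Dusp8, Dusp10 and Dusp16 act mainly on JNK and p38, and Dusp3 is a small phosphatase without the kinase-docking domain of the others. In the heart these enzymes limit the kinases that drive growth of cardiomyocytes under load.

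The promoters of Dusp5 and Dusp7, the members with a known rhythm in control rats, and of Dusp1, singled out for its values at ZT21, are shown because their sequences differ. Each run is 300 bases of the RefSeq assembly GRCr8, from 250 bases before the annotated start to 50 after it, 5′ to 3′ on the plus strand of the chromosome, which is the gene's own strand in all 3 cases. Capitals mark matches on either strand to the E-box CACGTG, the cAMP element TGACGTCA or its part TGACG, or the CArG box, the site of serum response factor. The promoter of Dusp1 (chr10:17184603-17184902) has a TGACG 172 bases before the start, a cAMP element 124 bases before it and an E-box 107 bases before it. The promoter of Dusp5 (chr1:262543524-262543823) has 2 adjoining CArG boxes, 82 and 72 bases before the start, followed by a cAMP part element at 55 bases. The promoter of Dusp7 (chr8:115887841-115888140) has no match to the motifs searched and is 81.0% G and C, against 68.0% for Dusp1 and 69.0% for Dusp5.
Dusp1: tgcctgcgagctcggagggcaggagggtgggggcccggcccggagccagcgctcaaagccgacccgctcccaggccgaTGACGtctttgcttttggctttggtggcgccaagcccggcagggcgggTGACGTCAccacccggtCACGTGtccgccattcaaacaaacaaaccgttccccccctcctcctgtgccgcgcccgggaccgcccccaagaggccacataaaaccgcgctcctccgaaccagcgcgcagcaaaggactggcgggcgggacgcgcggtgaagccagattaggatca
Dusp5: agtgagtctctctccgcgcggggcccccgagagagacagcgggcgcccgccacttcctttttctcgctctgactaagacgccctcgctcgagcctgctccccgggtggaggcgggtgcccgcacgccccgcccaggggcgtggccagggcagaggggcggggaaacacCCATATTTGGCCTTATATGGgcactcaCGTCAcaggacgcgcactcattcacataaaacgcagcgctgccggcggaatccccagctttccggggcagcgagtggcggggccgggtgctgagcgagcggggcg
Dusp7: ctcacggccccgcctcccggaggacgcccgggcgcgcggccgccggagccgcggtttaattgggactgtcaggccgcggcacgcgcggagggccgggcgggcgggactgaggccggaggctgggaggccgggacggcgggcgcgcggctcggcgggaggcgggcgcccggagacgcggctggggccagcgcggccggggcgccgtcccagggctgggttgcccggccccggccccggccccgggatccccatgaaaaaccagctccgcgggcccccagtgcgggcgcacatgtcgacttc
Of 33469 rat promoters of the same length, 6.42% held the E-box, 1.83% the cAMP element, 21.2% its part TGACG and 1.64% a CArG box. The glucocorticoid element ACANNNTGT (6.86% of promoters), the AP-1 site TGANTCA (7.33%) and the D-box TTANGTAA (2.24%) had no match in these 3 promoters. Every cAMP element holds TGACG by construction, while the TGACG of Dusp1 at 172 bases and that of Dusp5 lie outside any full element. Among the other members, Dusp6 had 1 glucocorticoid element, Dusp3 and Dusp16 each had 1 TGACG, and Dusp8 and Dusp10 had no match. A match is a run of letters and was not tested as a site.

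The summed level of 9 ventricular cardiomyocyte markers, led by Mb, had medians of 40920, 42270 and 45910 fpkm in the C, W and WRF groups. It was at least 21950 fpkm in 52 rats, but only 852.8 in WRF51 and 3998 in WRF62, so these libraries held little ventricular muscle transcript. The sum of all fpkm ranged from 373100 to 749600 over the rats, and fpkm values hold no read counts, so the depth of each library was not used here. Rat WRF51 (ZT9) held 1419 fpkm of Ager, a gene of lung epithelium, against at most 4.79 in C rats, and only 31.5 fpkm of Ckm, muscle creatine kinase. Of 6 listed lung markers, Ager was the only 1 measured. The marker sums of WRF51 for neutrophils (9215 fpkm), macrophages (422.8) and endothelium (440.9) were also above the highest C rats (295.7, 159.0 and 273.3). Rat WRF62 (ZT5) held 105.8 fpkm of Cd3e, a T cell receptor gene, against at most 2.91 in C rats, and 170.3 of Ckm, and W21 held 1027 of the liver gene Alb. Atrial Myl7 had medians of 16.5, 14.1 and 386 fpkm in the C, W and WRF groups, and ranged from 2.29 to 16080 within C rats alone. It was 3863 fpkm in WRF62, which thus held atrial muscle transcript, and 20.2 in WRF51. Leading markers of the other lists were Nppa (atrium), Dcn (fibroblasts), Pecam1 (endothelium), Rgs5 (pericytes), C1qa (macrophages), Cd2 (T cells), Cd79b (B cells), S100a9 (neutrophils), Ttr (liver), Cfd (adipocytes) and Hba1 (red cells), and the summed level of every list overlapped between the groups. In RNA of heart tissue, a change in the share of a cell type and a change in RNA per cell cannot be told apart.

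In control hearts the members spanned a wide range of levels. Dusp1 led with a median of 36.1 fpkm, above 86.9% of all genes of the table, followed by Dusp3 with 21.7 and Dusp7 with 14.5. A lower tier held Dusp5 (median 4.56 fpkm), Dusp6 (4.27), Dusp16 (3.08) and Dusp8 (2.68), and Dusp10 was lowest with 1.22 fpkm, above 6.58% of genes. The ranges of every pair of neighbours in this order overlapped. Within single C rats the order was firm for Dusp7 over Dusp5 (18 of 18 rats), Dusp3 over Dusp7 and Dusp8 over Dusp10 (17 of 18 each), and Dusp1 over Dusp3 and Dusp6 over Dusp16 (16 of 18 each). It was not firm for Dusp5 over Dusp6 or for Dusp16 over Dusp8, with 11 of 18 rats each. Dusp3 varied least over C rats, with an SD of 14.4% of its mean, and Dusp1 (43.5%) and Dusp5 (41.9%) varied most. Dusp1, Dusp3, Dusp5, Dusp6 and Dusp7 were above 1 fpkm in all 54 rats, Dusp8 in 53, Dusp16 in 52 and Dusp10 in 48.

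The first question was whether shift work, with or without food during work, changed the level of these phosphatases over the day as a whole. By the Kruskal-Wallis test over the 3 groups with times pooled, 941 of 10257 genes differed at q of at most 0.05 (9.17%), and 0 of the 8 members did, with q from 0.184 for Dusp16 to 0.883 for Dusp5. Of all genes, 8.13% were called higher and 0.721% lower in WRF than in C rats after exact Mann-Whitney tests. limma on log2(fpkm + 1), with adjustment over all genes, called 12.9% of genes and 0 members between WRF and C rats, and 0% of genes and 0 members between W and C rats. At an unadjusted Mann-Whitney p under 0.05, 3 of 8 members differed between WRF and C rats, Dusp10 higher and Dusp7 and Dusp16 lower, against 21.4% of all genes higher and 4.9% lower. Between W and C rats 0 members and 2.64% of genes did so.

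Dusp16, the JNK and p38 phosphatase that shuttles between nucleus and cytoplasm, had the largest relative drop of the median from C to WRF rats. It ranged from 1.14 to 5.29 fpkm in C rats with a median of 3.08, from 1.28 to 4.45 in W rats with a median of 2.95, and from 0.547 to 4.32 in WRF rats with a median of 2.36. The groups overlapped over most of their range, and the lowest values were in WRF rats. WRF minus C was -0.34 ± 0.14 (SE) on the log2(fpkm + 1) scale, which understates the change of low genes, with a limma adjusted p of 0.0944. Dusp16 passed the Kruskal-Wallis threshold in 1 alternative, without the series C33 to C38, with q = 0.0143 against 0.184 in all rats. In that setting 2757 genes of the table passed, against 941 in all rats.

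Dusp7, a cytoplasmic ERK phosphatase, ranged from 8.27 to 23.0 fpkm in C rats (median 14.5), from 8.49 to 20.1 in W rats (median 13) and from 7.11 to 18.01 in WRF rats (median 11.6). The 3 medians stepped down from C to W to WRF, with wide overlap. WRF minus C was -0.30 ± 0.13 (SE), limma adjusted p = 0.0956, and W minus C was -0.13 ± 0.13, adjusted p = 0.9999. After median-of-ratios scaling, which removes differences in overall scale between rats, both Dusp7 (-0.38, adjusted p = 0.0288) and Dusp16 (-0.41, adjusted p = 0.0355) passed as lower in WRF rats by limma. The same scaling turned the split of all Kruskal-Wallis calls from 834 higher and 74 lower in WRF than C rats (91.9% higher) to 223 higher and 211 lower (51.4%). Whether Dusp7 and Dusp16 were called depended on the scaling, and both were lower in WRF rats on each scale. Without the series C33 to C38, limma called 4 members lower in WRF rats, Dusp16 (adjusted p = 0.00242), Dusp7 (0.0265), Dusp8 (0.0378) and Dusp3 (0.0379). Calls rose over the whole table in that setting, with 2757 genes by Kruskal-Wallis against 941 in all rats. The limma count over all genes in that setting is not given here.

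Dusp10, a phosphatase of p38 and JNK with roles in immune cells, had the only upward difference among the 3, with a WRF median of 1.55 fpkm (1.01 to 4.23) against 1.22 (0.803 to 1.83) in C and 1.23 (0.700 to 2.10) in W rats. The highest values, 4.23 fpkm in WRF62 and 3.41 in WRF51, came from the libraries that held little ventricular muscle transcript. Without both, the WRF median was 1.49 fpkm and the highest value 2.38. WRF minus C was 0.23 ± 0.09 (SE), limma adjusted p = 0.0782, and 0.13 ± 0.07 (limma adjusted p = 0.229) without both libraries. Without the series WRF1 to WRF6, which leaves both libraries in, Dusp10 (0.34, adjusted p = 0.00906) and Dusp16 (-0.43, adjusted p = 0.0326) passed. In that setting Kruskal-Wallis called 3201 genes of the table, against 941 in all rats. The T cell marker list (5 of 5 measured) summed to 5.80 to 22.3 fpkm in C rats and 9.38 to 598 in WRF rats, and its part in the Dusp10 values was not tested.

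Dusp6, the cytoplasmic ERK phosphatase induced by ERK itself, showed a similar dependence on a single library. It ranged from 3.17 to 6.16 fpkm in C rats (median 4.27) and from 3.18 to 5.23 in W rats (median 4.32). In WRF rats it ranged from 2.65 to 34.4 (median 4.55), with the top value in WRF51 and the next, 8.72, in WRF62. Without these libraries the WRF rats lay between 2.65 and 5.94 fpkm. WRF minus C was 0.14 ± 0.15 (SE), limma adjusted p = 0.521, and -0.07 without them. Dusp8, a JNK and p38 phosphatase enriched in brain, heart and skeletal muscle, had medians of 2.68, 2.54 and 2.45 fpkm in C, W and WRF rats, and WRF minus C was -0.21 ± 0.13, adjusted p = 0.251. Its lowest value of all rats, 0.813 fpkm, was in WRF62.

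Dusp3 had the closest medians of the abundant members, at 21.7 fpkm (16.4 to 25.7) for C, 21.2 (16.8 to 25.5) for W and 20.1 (10.9 to 24.6) for WRF rats. The lowest value was again in WRF62. WRF minus C was -0.10 ± 0.08, limma adjusted p = 0.373, with a 95% interval from -0.25 to 0.05. Dusp5 had medians of 4.56, 4.56 and 4.02 fpkm, and WRF minus C was -0.06 ± 0.17, adjusted p = 0.827. Dusp1 had medians of 36.1, 28.03 and 30.3 fpkm, with W minus C at -0.31 ± 0.17, adjusted p = 0.9999. Over the 8 members the median WRF minus C difference was -0.08, beside 0.08 over all genes, and the median W minus C difference was -0.05, beside -0.01.

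**Figure D1:**
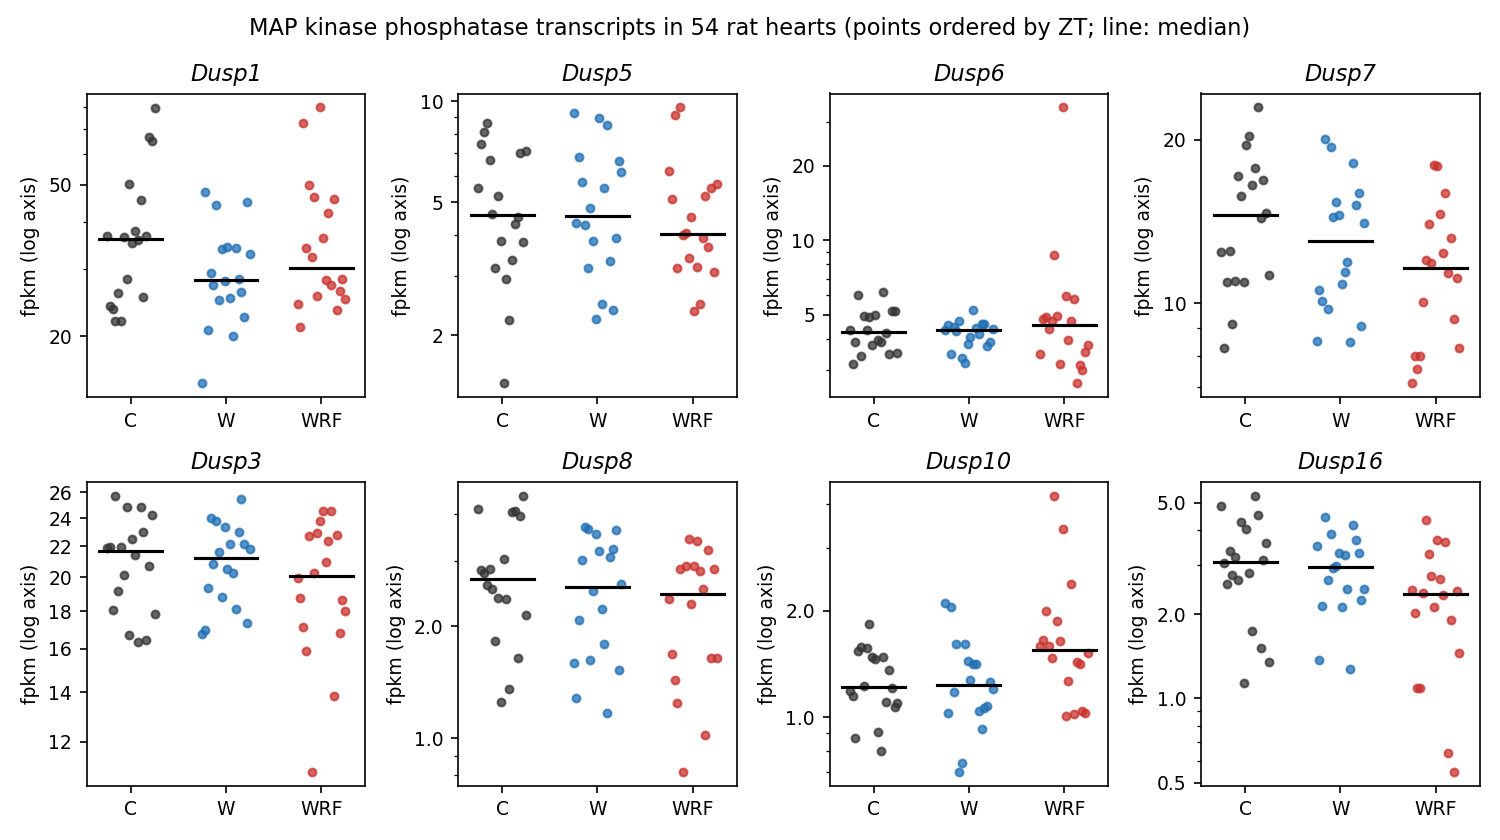
Level of each member in every rat (points, ordered by ZT within a group) with the group median (line), in fpkm on a log axis. The groups overlap in all 8 panels, and single WRF rats stand out in Dusp6 (34.4 fpkm) and Dusp10 (4.23 fpkm).

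**Figure D2:**
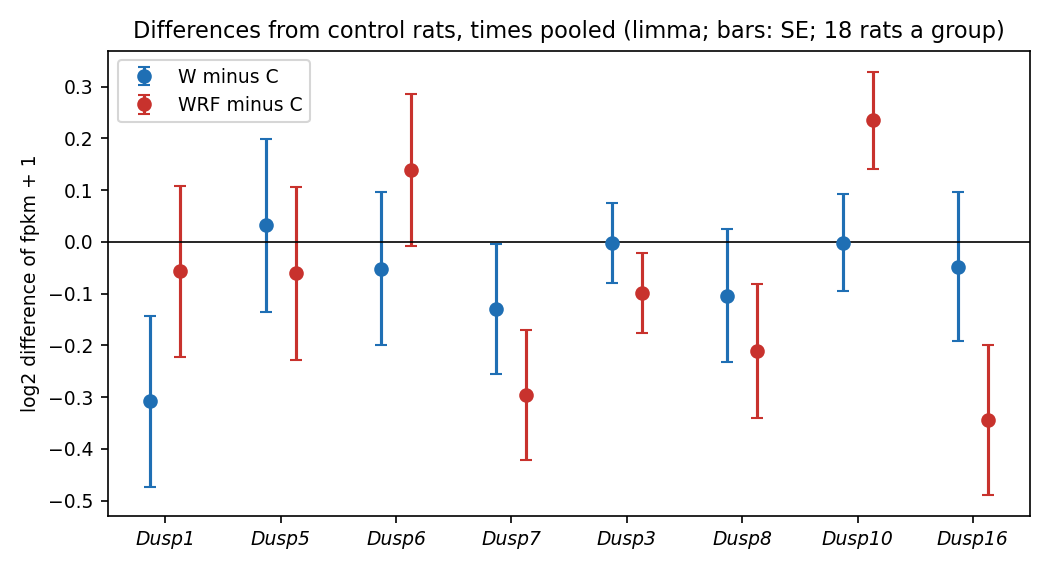
Difference of W and WRF rats from C rats for each member on the log2(fpkm + 1) scale, with SE from limma and 18 rats a group. Dusp16 (-0.34), Dusp7 (-0.30) and Dusp10 (0.23) lie farthest from 0 in WRF rats, and Dusp1 (-0.31) in W rats.

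The second question was when in the day each phosphatase was expressed. The levels of Dusp5 and Dusp7 in C rats were the pattern known when the members were picked, so they are described without a test. Dusp5 was high around lights on and low at lights off. At ZT1 the 3 C rats held 5.49, 7.47 and 8.10 fpkm, and at ZT5 4.62, 6.70 and 8.60. At ZT13 they held 1.44, 2.23 and 2.96, the lowest time, with no overlap with ZT1 or ZT5. Dusp7 ran the other way, with 8.27, 10.96 and 12.4 fpkm at ZT1 and 16.5, 19.6 and 20.3 at ZT13. Fits of a 24 h cosine gave a relative amplitude (amplitude over mean) of 0.472 ± 0.085 (SE) with the peak at ZT1.32 for Dusp5, and of 0.313 ± 0.058 with the peak at ZT14.8 for Dusp7. The Dusp5 transcript thus peaked at the start of the resting phase and the Dusp7 transcript early in the active phase. In the 3 series of C rats taken singly, Dusp5 peaked at ZT22.8, ZT3.40 and ZT0.58, and Dusp7 at ZT15.4, ZT13.9 and ZT15.1. The ratio of Dusp5 to Dusp7 transcript was 0.443, 0.739 and 0.904 in the C rats at ZT1 and 0.0734, 0.135 and 0.146 at ZT13, so that the balance between them moved without overlap.

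Earlier results of the WRF rats were known as well, so their values are descriptions and nothing is read from the count. At an unadjusted p under 0.05 in the 24 h fit, 2 of 8 members, Dusp5 and Dusp7, were rhythmic in WRF rats, against 6.35% of all genes, and 0 members passed q under 0.05, against 0.039% of genes. Dusp7 held 7.11, 7.56 and 7.99 fpkm at ZT1 in WRF rats, 12.4, 14.6 and 17.9 at ZT13, and 8.26, 9.33 and 11.2 at ZT21. Its relative amplitude was 0.334 ± 0.058 with the peak at ZT12.6 (p = 0.000144 from the harmonic F test, q = 0.126). After median-of-ratios scaling Dusp7 passed, with q = 0.0364. Dusp5 held 5.11, 6.17 and 9.11 fpkm at ZT1 and 2.37, 2.48 and 3.19 at ZT13 in WRF rats, without overlap. Its relative amplitude was 0.370 ± 0.120 with the peak at ZT1.36 (p = 0.0252, q = 0.569).

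For 12 of the 18 WRF rats the labels give a second time, 4 h away from the one in the sample titles, and the titles were used. With the other labels Dusp7 in WRF rats had a relative amplitude of 0.218 (p = 0.0721) and Dusp5 of 0.359 (p = 0.0325), and 1.79% of all genes had an unadjusted p under 0.05 in place of 6.35%. With the titles, the clock gene Nr1d1 peaked at ZT8.57, ZT7.90 and ZT7.20 in the 3 WRF series and at ZT8.07 to ZT8.32 in the C series.

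In C rats 3 of 8 members had an unadjusted p under 0.05, Dusp5, Dusp7 and Dusp8, against 5.91% of all genes, and Dusp5 and Dusp7 passed q under 0.05, against 0.848% of genes. Both counts include the genes whose pattern was known, so nothing is read from them. In W rats 0 of 8 members had an unadjusted p under 0.05, against 3.05% of genes, and 0 passed q under 0.05, against 0% of genes. Dusp5 had a relative amplitude of 0.181 ± 0.146 (SE) in W rats (p = 0.483), and Dusp7 of 0.098 ± 0.096 (p = 0.602). At ZT13, the trough of the C rats, the W rats held 2.48, 5.51 and 8.89 fpkm of Dusp5, a spread wider than that of the C rats at any time. For Dusp7 the W rats held 10.8, 11.4 and 11.9 fpkm at ZT13, below all 3 C rats of that time (1.74% of all genes were), and 9.77, 19.4 and 20.1 at ZT5.

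The W group held a series with a displaced clock. In the rats W33 to W38, Dusp5 peaked at ZT16.1, 8.79 h earlier than the mean peak of the 3 C series, and Dusp7 at ZT6.41, 8.39 h earlier. The clock genes Arntl, Nr1d1, Dbp and Per2 peaked 7.75 to 9.81 h earlier in the same 6 rats. In the other W series, W17 to W22 and W1 to W11, Dusp5 peaked at ZT1.39 and ZT23.5, and Dusp7 at ZT13.6 and ZT15.8, all within 1.38 h of the C mean. The peaks of Dusp5 and Dusp7 lay 7.37 to 11.8 h apart in all 9 series, and 9.69 h apart in W33 to W38. These phases rest on 6 rats a series and are descriptions. The peak of Dusp7 in W17 to W22 comes from a relative amplitude of 0.035, too flat to place it well.

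Without W33 to W38, Dusp5 in the remaining 12 W rats had a relative amplitude of 0.387 with the peak at ZT0.60 (p = 0.118), and Dusp7 one of 0.094 (p = 0.690). In that subset 0 members and 4.49% of genes had an unadjusted p under 0.05. The amplitude of Dusp5 was thus larger without that series and that of Dusp7 was not, and in W17 to W22 alone the amplitude of Dusp7 was 0.035.

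**Figure D3:**
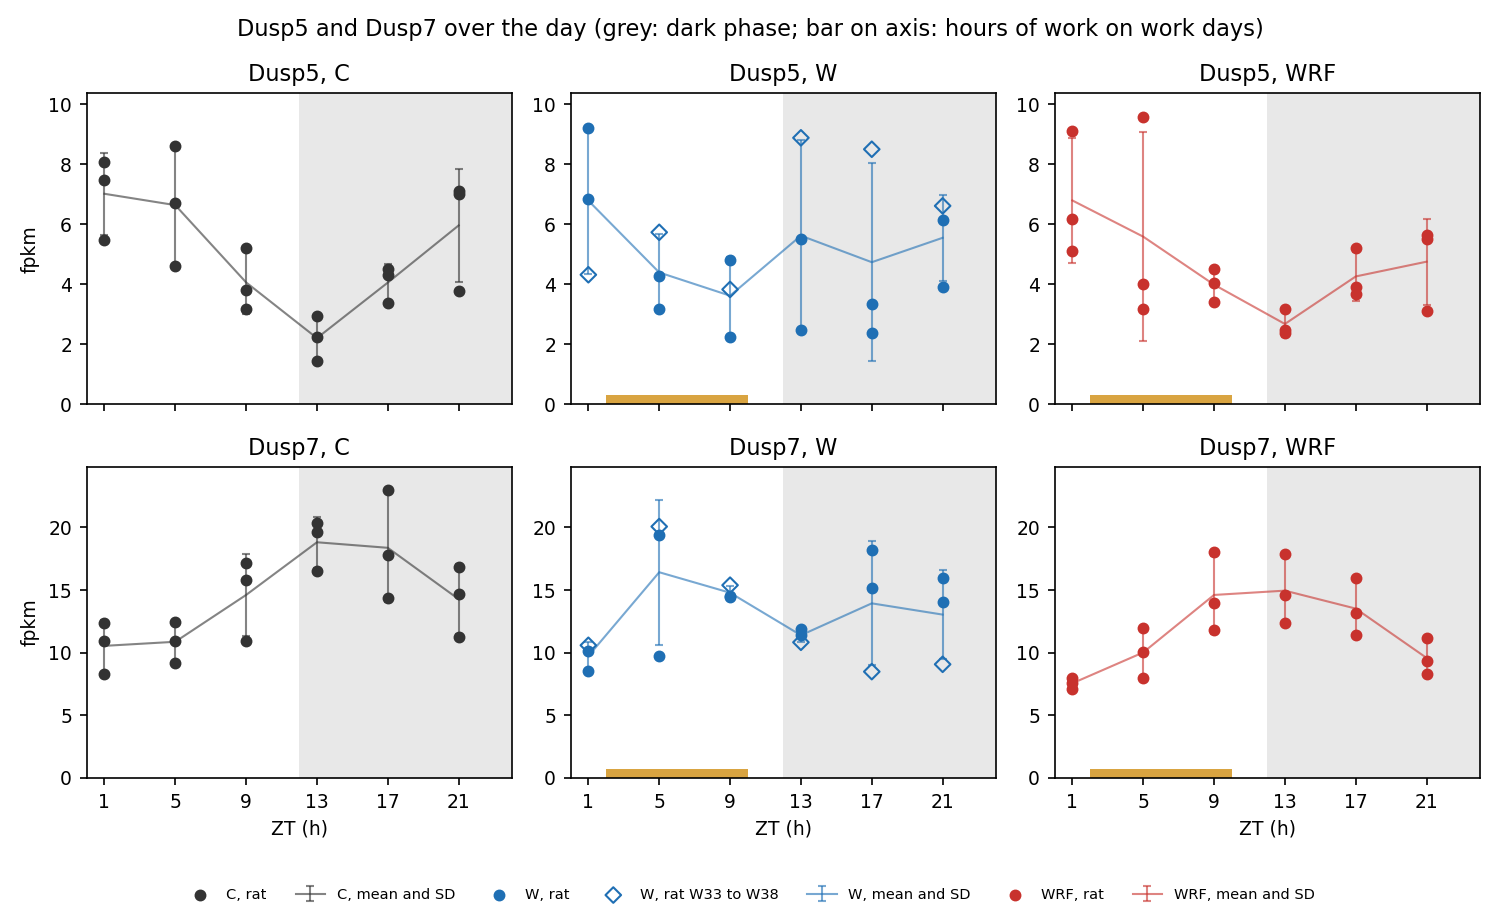
Levels of Dusp5 and Dusp7 in fpkm against ZT in C, W and WRF rats (points: rats, with open diamonds for W33 to W38, line and bars: mean and SD, n = 3 per time). Dusp5 is lowest at ZT13 and Dusp7 lowest at ZT1 in C and WRF rats, while the W rats scatter and the open diamonds of Dusp5 at ZT13 (8.89 fpkm) and ZT17 (8.51 fpkm) lie high.

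**Figure D4:**
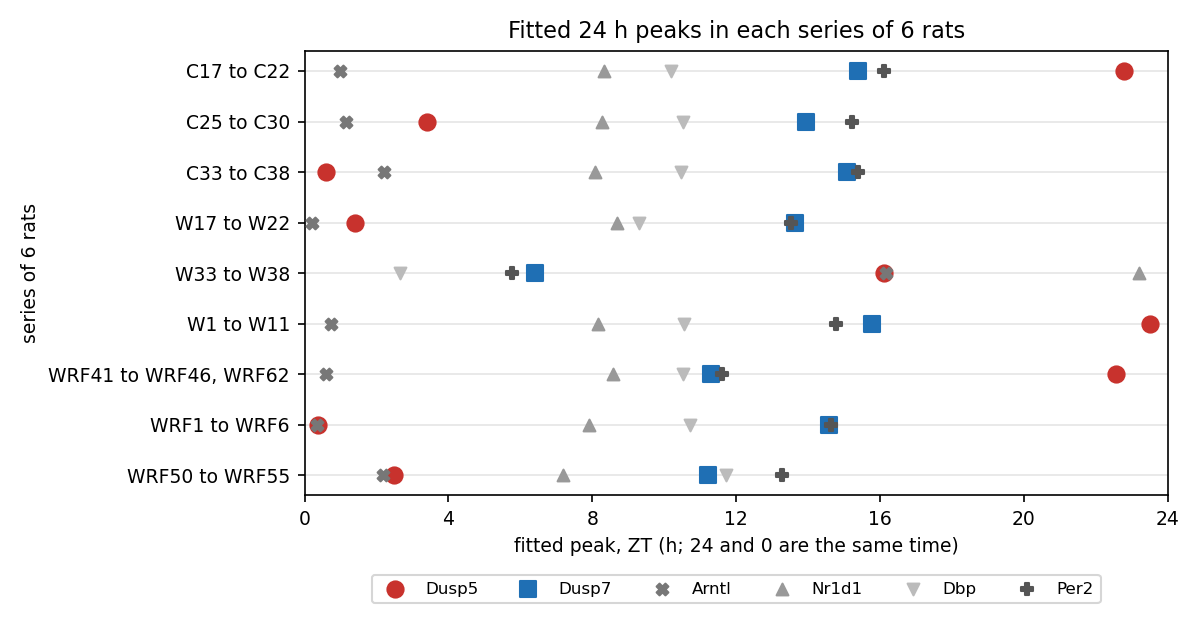
Fitted 24 h peak in each of the 9 series of 6 rats, on an axis of ZT in hours, for Dusp5, Dusp7 and 4 clock genes. In W33 to W38 the peaks of Dusp5 (ZT16.1) and Dusp7 (ZT6.41) lie apart from the other series, as do those of the clock genes.

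Whether the rhythm of a member differed between groups was tested by limma on the cosine and sine terms. At an adjusted p under 0.05 the rhythm differed for 0 members and 0% of genes between W and C, WRF and C, and WRF and W rats. At an unadjusted p under 0.05 the shares of all genes were 1.83%, 5.76% and 6.71%. Between WRF and C rats Dusp8 (p = 0.00661) and Dusp1 (p = 0.00768) were under that level, each with a limma adjusted p of 0.618. Between WRF and W rats Dusp7 (p = 0.0192) and Dusp6 (p = 0.0345) were, each with an adjusted p of 0.539. Without W33 to W38 both were above it (p = 0.0553 and 0.0951), and without WRF51 and WRF62 Dusp6 had p = 0.294. Between W and C rats Dusp7 (p = 0.00719) and Dusp8 (p = 0.0402) were under that level, each with a limma adjusted p of 0.9999. Once W33 to W38 were left out, Dusp7 had p = 0.158 and Dusp8 p = 0.320. The rhythms of Dusp5 and Dusp7 in C rats were known when the members were picked, so their comparisons with C rats are descriptions.

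By the mean of the 3 rats at each time, Dusp8 was highest at ZT21 in C rats (3.53 fpkm) and at ZT13 in WRF rats (3.04 fpkm). In C rats it held 1.25, 1.82 and 2.39 fpkm at ZT9 and 2.15, 3.96 and 4.49 at ZT21, with a fitted peak at ZT21.5 (relative amplitude 0.303 ± 0.0997, p = 0.0276, q = 0.658). In WRF rats it held 2.30, 2.897 and 3.43 fpkm at ZT9 and 1.64, 1.64 and 2.85 at ZT21, with the peak at ZT12.6 (0.284 ± 0.108, p = 0.0572, q = 0.569). The C series taken singly peaked at ZT21.2, ZT19.1 and ZT1.42. With each C series left out in turn, the harmonic p ran from 0.000285 to 0.304. With the other labels the WRF peak was at ZT9.89 (harmonic p = 0.238). After median-of-ratios scaling the harmonic p was 0.0136 in C rats and 0.200 in WRF rats. At ZT1 the C rats held 2.78, 2.84 and 4.12 fpkm, above all W rats (1.28, 1.59 and 2.09) and all WRF rats (1.44, 1.69 and 2.37) of that time. At ZT1, 14.7% of all genes did not overlap between W and C rats, and 21.3% between WRF and C rats. Of the members, Dusp8 did not overlap in W rats, and Dusp7, Dusp8, Dusp10 and Dusp16 did not in WRF rats. These differences did not pass adjustment over all genes, and the WRF values use the times of the titles. With the other labels the WRF rats of ZT1 were WRF1, WRF62 and WRF50. In these rats Dusp8 (1.685, 0.8135 and 2.849 fpkm), Dusp7 (7.992, 12.01 and 10.04) and Dusp16 (2.014, 4.32 and 2.379) overlapped with C rats. Dusp10 did not (1.657, 4.228 and 1.466).

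Dusp3, Dusp6, Dusp10 and Dusp16 had unadjusted harmonic p above 0.05 in each group on the fpkm scale. Dusp3 had relative amplitudes of 0.020 (C), 0.057 (W) and 0.139 (WRF), the last with p = 0.0916, and its 18 C rats stayed between 16.4 and 25.7 fpkm at all times. Dusp6 had relative amplitudes of 0.020 in C and 0.036 in W rats. Its value of 0.659 in WRF rats (p = 0.256) came down to 0.112 (p = 0.454) without WRF51 and WRF62, the rats with the highest levels at ZT9 and ZT5. Dusp10 was highest at ZT9 in C rats, with 1.48, 1.57 and 1.83 fpkm, and held 0.803, 0.907 and 1.46 at ZT13 (relative amplitude 0.151, p = 0.118). In WRF rats its relative amplitude was 0.373 (p = 0.0567), and 0.166 (p = 0.213) without WRF51 and WRF62. By ranks within the group, which limit the pull of single high rats, Dusp10 had p = 0.0127 in WRF rats, with q = 0.251. Dusp16 had relative amplitudes of 0.071, 0.103 and 0.307 in C, W and WRF rats, with p from 0.139 to 0.875, and its lowest WRF values, 0.547 and 0.637 fpkm, were at ZT21 and ZT17. At ZT1 the WRF rats held 1.09, 2.01 and 2.44 fpkm of Dusp16, below the 2.56, 3.04 and 4.87 of the C rats, a separation that did not pass adjustment over all genes. At that time 3.63% of all genes lay wholly below C rats in WRF rats. Both use the times of the titles. With the other labels the WRF rats of ZT1 held 2.014, 2.379 and 4.32 fpkm of Dusp16 and overlapped with C rats.

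Dusp1 was highest in C rats at ZT21, the last hours of the active phase. The 3 C rats of that time, from 3 different series, held 65.3, 66.5 and 79.5 fpkm, and no other C rat exceeded 50.2. At ZT21 the W rats held 22.5, 32.8 and 45.1 fpkm, and the WRF rats 24.96, 26.2 and 28.2, so that neither group overlapped with C rats. The C mean was 70.4 ± 7.91 fpkm (SD, n = 3), the W mean 33.4 ± 11.3 and the WRF mean 26.5 ± 1.63. In a limma fit with a mean for each group and time, WRF minus C at ZT21 was -1.38 ± 0.36 (SE) with p = 0.000499 and adjusted p = 0.854, and W minus C was -1.10 ± 0.36 with p = 0.00424 and an adjusted p of 1. In that fit limma called 0 genes at ZT21 in either comparison, with 89 genes for W and 229 for WRF at an unadjusted p under 0.05. All 3 W rats lay below all 3 C rats at ZT21 for 5.32% of genes, and all 3 WRF rats for 5.37%. This time was singled out after the values were seen, both comparisons share the C rats, and with the other labels the WRF rats of ZT21 held 24.3, 28.2 and 72.7 fpkm and overlapped with C rats. At ZT13 the order was the same for W rats, 20.1 to 34.3 fpkm against 35.1 to 37.9 in C rats, while at ZT5 it was opposite, 27.3 to 44.1 in W and 32.4 to 49.9 in WRF rats against 21.9 to 25.98 in C rats. The shares of all genes without overlap with C rats were 11.9% for W rats at ZT13, and 7.92% for W and 13.3% for WRF rats at ZT5.

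Some other immediate early genes also lay below C rats at ZT21. Of 20 measured, 9 had all 3 W rats below all 3 C rats at ZT21, and 14 had all 3 WRF rats below them. The shares of all genes were 5.32% for W and 5.37% for WRF rats. Fos, a subunit of the AP-1 transcription factor, held 9.65, 15.0 and 65.5 fpkm in C rats at ZT21, 1.19, 5.87 and 8.25 in W rats, and 0.605, 1.17 and 1.26 in WRF rats. Ier2 held 22.7, 38.2 and 44.8 fpkm in C rats, 14.3, 18.95 and 20.5 in W rats and 13.5, 15.1 and 15.7 in WRF rats. Btg2, an antiproliferative early gene, held 26.6, 31.2 and 39.3 fpkm in C rats, 15.9, 15.96 and 17.4 in W rats and 13.4, 14.1 and 14.9 in WRF rats. Of 16 glucocorticoid response genes, 1 (W) and 3 (WRF) lay wholly below C rats at ZT21, and of 12 ERK feedback genes and targets 0 and 1 did. The list was written with earlier results of these data known, and the look at ZT21 followed the Dusp1 values, so these counts are descriptions. The WRF counts and values use the times of the titles. With the other labels the WRF rats of ZT21 were WRF46, WRF6 and WRF55, for which no such counts are given here.

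**Figure D5:**
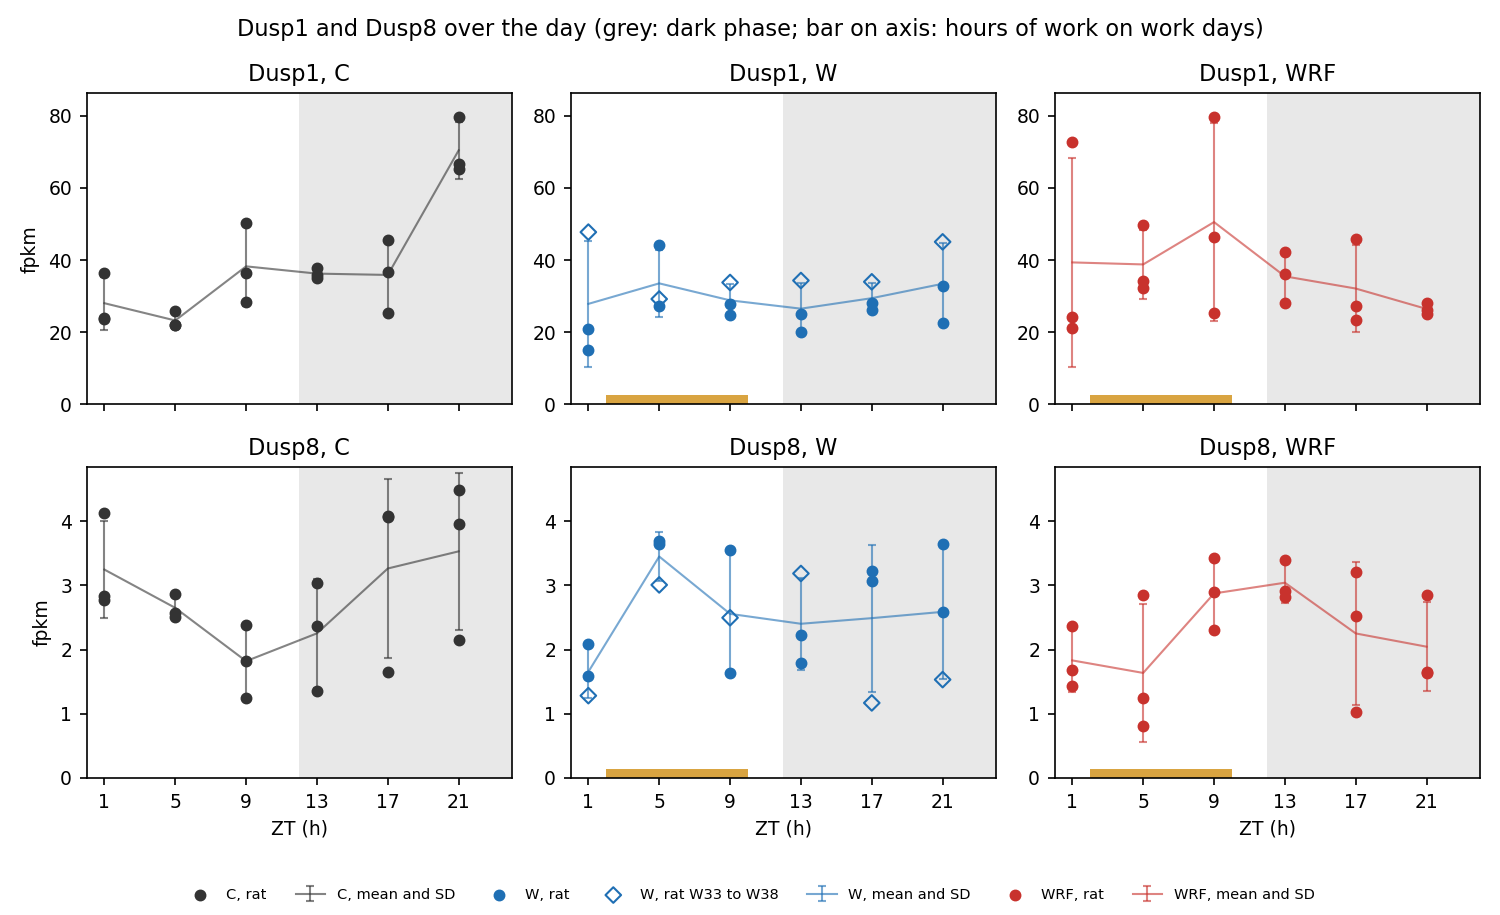
Levels of Dusp1 and Dusp8 in fpkm against ZT in C, W and WRF rats (points: rats, with open diamonds for W33 to W38, line and bars: mean and SD, n = 3 per time). The 3 C rats at ZT21 are the highest of their group for Dusp1 (65.3 to 79.5 fpkm), and the highest WRF point, 79.8 fpkm at ZT9, is WRF51.

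Dusp1 was compared with Fos, Dusp5 with Egr1, an ERK-induced early gene, and Dusp6 with Spry4, an ERK-induced inhibitor, over the 18 rats of each group, 9 relations in all with permutation p-values. Dusp1 rose with Fos in C rats by rank (rho = 0.670, permutation p = 0.0027, adjusted p = 0.0121), while Pearson's r was 0.619 (permutation p = 0.0128, adjusted p = 0.0611). Without C22 and C29, the rats farthest from the median of Fos, r was 0.785, and within the 3 C series it was 0.578 to 0.970. In WRF rats rho was 0.690 (permutation p = 0.00209, adjusted p = 0.0121) and r 0.265 (permutation p = 0.271, adjusted p = 0.406), with r = 0.589 without WRF62 and WRF44 and 0.264 to 0.707 within series. In W rats rho was 0.026 (permutation p = 0.923, adjusted p = 0.923) and r 0.185 (permutation p = 0.467, adjusted p = 0.594), with r = -0.31 without W36 and W38 and -0.53 to 0.13 within series. The difference between the groups' correlations was not tested.

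Dusp6 followed Spry4 by rank in C rats (rho = 0.598, permutation p = 0.0105, adjusted p = 0.0314), with r = 0.463 (permutation p = 0.0517, adjusted p = 0.116) and 0.547 without C30 and C19. Within the C series r was -0.29, 0.056 and 0.460, so the relation did not hold within series. In WRF rats r was 0.850 (permutation p = 0.0204, adjusted p = 0.0611) and rho 0.453 (permutation p = 0.0605, adjusted p = 0.0907), but r was -0.12 without WRF51 and WRF4, so it rested on those rats. In W rats r was 0.443 (permutation p = 0.068, adjusted p = 0.122) and rho 0.486 (permutation p = 0.0434, adjusted p = 0.0781). Dusp5 and Egr1 gave adjusted permutation p-values from 0.0611 to 0.906 over the 3 groups, with r from 0.140 in WRF rats to 0.529 in W rats, and r in W rats was 0.312 without W36 and W38.

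Which transcripts most resembled each member was taken as Spearman's rho over all 54 rats among the 6132 genes that averaged 5 fpkm or more, as a description. Points share library, time of day and tissue makeup. Dusp1 was most like the early genes Ier2 (rho = 0.765), Zfp36 (0.742), which encodes a protein that destabilises mRNA, and Btg2 (0.728). Dusp5 was most like Ckap4 (0.759), Gja1 (0.672), the main ventricular gap junction protein, and Slc41a3 (0.636). Dusp7 was most like Rapgef5 (0.871), and its rho with the clock output factor Tef was 0.789. Dusp16 had the closest match of all, Mat2a (0.916), the enzyme that makes S-adenosylmethionine, followed by Wac (0.885) and Ints13 (0.877). Dusp8 was most like Thbd and Lrrc8a (0.746 each) and Filip1 (0.726), and Dusp6 like Kbtbd2 (0.724), Ube2j1 (0.720) and Gnai3 (0.713). Dusp3 was most like Gzf1 (0.853), Nckap1 (0.828) and Cd59 (0.824), and Dusp10 had the weakest neighbours, Pfkp (0.605), Loxl1 (0.604) and Wdr6 (0.592). Without WRF51, WRF62 and W21, the first gene stayed first for 6 of the members, and Gzf1 moved to place 6 for Dusp3 and Pfkp to place 2 for Dusp10. Among the members, Dusp3, Dusp8 and Dusp16 rose and fell together (rho = 0.717 for Dusp3 with Dusp8, 0.673 for Dusp3 with Dusp16, 0.613 for Dusp8 with Dusp16). Dusp7 had rho = 0.607 with Dusp16, 0.586 with Dusp3 and 0.470 with Dusp8, and Dusp5 and Dusp7 ran opposite (-0.55).

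Beside the members, 14 lists of 176 genes were read, 136 of them measured. They held genes of the MAP kinase pathway, immediate early genes and 16 measured glucocorticoid response genes. Of the 136, 4 were called by the Kruskal-Wallis test (2.94%), beside 9.17% of all genes, and their median WRF minus C difference was 0.01 on the log2 scale, beside 0.08. Map2k5, the kinase above ERK5, had medians of 5.598, 5.27 and 6.33 fpkm in C, W and WRF rats (q = 0.0488). Hras rose from 31.3 in C rats to 39.4 in WRF rats (q = 0.0467). Mapk8ip3, a JNK scaffold, fell from 7.82 to 5.75 fpkm (q = 0.0236), and Flt1, the VEGF receptor of endothelium, from 16.6 to 12.7 (q = 0.0253). The lists they came from held 7 MAP2 kinases, 14 Ras proteins and adaptors, 8 scaffolds and 9 growth factor receptors, with 1 call each. These 4 were all past p under 0.05 between WRF and C rats by exact Mann-Whitney tests (p = 0.0142, 0.0266, 0.00333 and 0.00164), and by the same test none was between W and C rats.

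Of the substrates of the phosphatases, 0 were called among 4 ERK, 2 JNK and 2 p38 genes measured. Mapk3 (ERK1) had medians of 32.9, 30.9 and 35.5 fpkm in C, W and WRF rats. Mapk9 (JNK2) had medians of 12.5, 11.6 and 10.2 fpkm (q = 0.162) and Mapk8 (JNK1) of 3.53, 3.35 and 3.02. Mapk14 (p38 alpha) had medians of 17.2, 16.4 and 17.2 fpkm and Mapk12 (p38 gamma), the muscle form, of 13.2, 11.4 and 11.6. None of the 8 genes had a 24 h rhythm at an unadjusted p under 0.05 in any group. Among 13 other dual-specificity phosphatases 0 were called, with Dusp22 at medians of 20.2, 20.95 and 22.5 fpkm (q = 0.141) and Dusp23 at 14.6, 13.9 and 14.7. Among 6 phosphatases of other families 0 were called, with Ppp2ca, the catalytic subunit of PP2A, at 38.8, 38.3 and 40.01 fpkm and Ppm1a at 32.4, 32.2 and 31.8.

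Upstream and downstream lists gave few calls as well. Of 13 MAP3 kinases 0 were called (Araf had medians of 38.3, 38.9 and 39.2 fpkm in the C, W and WRF groups), and of 10 kinases activated by MAP kinases 0 were (Mapkapk2 116.8, 110.3 and 126.1, Mknk2 32.4, 31.6 and 39.2). The 12 ERK feedback inhibitors and targets had 0 calls, with Phlda1 at medians of 16.2, 21.5 and 16.9 fpkm, Ier3 at 14.8, 12.9 and 15.1 and Spry4 at 2.28, 2.14 and 1.99. The 20 immediate early genes had 0 calls over pooled times, with Jund at 39.6, 34.1 and 43.4 fpkm, Jun at 24.4, 23.6 and 23.1, Fos at 2.12, 2.11 and 2.42 and Egr1 at 3.53, 3.09 and 2.82. The 16 glucocorticoid response genes had 0, with Pdk4 at 45.7, 51.5 and 28.6 fpkm and Tsc22d3 at 41.5, 40.4 and 50.4, and the 13 core clock genes 0, with Tef at 23.6, 24.01 and 19.7 and Dbp at 22.2, 31.7 and 34.1. Over the day, 25 of the 136 genes of the 14 lists had an unadjusted p under 0.05 in C rats (18.4%), 1 in W rats (0.735%) and 14 in WRF rats (10.3%), beside 5.91%, 3.05% and 6.35% of all genes. Of the 25 in C rats, 10 were among the 16 glucocorticoid response genes, and outside that list the counts were 15, 0 and 10 of 120 (12.5%, 0% and 8.33%). Mknk2, a kinase activated by ERK and p38, was among them in C rats (peak ZT15.8, p = 0.000947), as was Jun (peak ZT18.9, p = 0.0232).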

How the data were processed

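The authors sequenced polyA RNA of 54 rat hearts, aligned reads to rn6 with TopHat2 and computed fpkm with Cufflinks. The deposited table holds fpkm values of genes above 1 fpkm in at least 18 rats. Since fpkm gives no counts, groups were compared with Kruskal-Wallis tests (Benjamini-Hochberg q over 10257 genes), exact 2-sided Mann-Whitney tests, and a moderated fit by limma (version 3.58.1, in R 4.3.3) to log2(fpkm + 1), whose prior variance followed the mean level. Rhythms were fitted by 24 h harmonic regression (F test, scipy 1.17.1), and correlations had 100000 permutations (2-sided). Scripts were tested on simulated data. Alternatives covered scaling, pseudocount, filters, time labels, single series and libraries that stood apart. Members and gene lists were chosen with earlier results of these data known. Named genes were all members, called genes of each list (at most 4, otherwise the 2 most abundant), the most abundant marker of each marker list with Ager, Cd3e, Alb, Myl7 and Ckm, the 3 nearest transcripts of each member, Fos, Egr1 and Spry4. A few genes that this rule names are not reported here. Dusp1 at ZT21, its early-gene companions and Dusp2 were singled out after values were seen.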

Additional observations from a re-analysis of the deposited data

How the results depend on the processing

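Counts of calls depended on scale and on single series of 6 rats. Kruskal-Wallis called 442 genes after median-of-ratios scaling, 529 without WRF51, WRF62 and W21, and 0 to 3201 when each series was left out in turn (941 in all rats). Members called among groups, and called lower in WRF than C rats, were 0 to 1 over the series left out, and limma called 2 members between WRF and C rats after median-of-ratios scaling and 0 to 4 over the series. Members rhythmic at q under 0.05 in C rats were 1 by ranks, 1 with a mean of at least 5 fpkm (which drops Dusp5) and 0 to 0 over the series, where 12 rats remain. At an unadjusted p under 0.05 they were 1 with that filter (6.20% of the genes kept) and 2 to 3 over the series (3.83% to 6.66% of all genes). In WRF rats 1 member passed q after scaling and 1 by ranks. At an unadjusted p the WRF count was 1 with the other time labels (1.79% of all genes) and 4 by ranks (15.6%). It was 1 with the filter (6.91% of the genes kept) and 1 to 3 over the series (2.135% to 11.2% of all genes). The values that changed sign were small. WRF minus C of Dusp6 was -0.068 without WRF51 and WRF62, and W minus C after scaling was 0.0035 for Dusp3 and 0.0028 for Dusp10. Over the series, the WRF minus C difference ran from -0.23 to 0.0803 for Dusp1, -0.22 to 0.0011 for Dusp3, -0.18 to 0.08 for Dusp5 and -0.0029 to 0.23 for Dusp6, and the W minus C difference from -0.12 to 0.10 for Dusp3, -0.12 to 0.11 for Dusp5, -0.15 to 0.02995 for Dusp6, -0.059 to 0.046 for Dusp10 and -0.30 to 0.11 for Dusp16. The 12 numbers shared by C and W rats were not taken to pair them, since 6 of 12 same-numbered pairs correlated above 0.1 and 1 had its own number as best match. With a replicate block limma gave 1707 genes at an unadjusted p under 0.05, against 887 without, 0 members, and 0 genes past adjustment in both. No other setting changed a count of members between W and C rats, or of rhythm differences at an adjusted p under 0.05. At an unadjusted p, rhythm differences without W33 to W38 fell from 2 members to 0 for W against C and for WRF against W, and without WRF51 and WRF62 from 2 to 1 for WRF against W. Values in fpkm hold no counts, so no counting error was given for low members such as Dusp10.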

Other observations

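Dusp2, a nuclear phosphatase of ERK and p38 that is induced in activated lymphocytes, was in the table but not among the 8 genes. It ranged from 0.329 to 1.63 fpkm in C rats (median 0.716), from 0.498 to 1.47 in W rats (median 0.829) and from 0.520 to 31.6 in WRF rats (median 1.10), with the top value in WRF62, the library with T cell transcripts. The Kruskal-Wallis q was 0.0531, and the exact Mann-Whitney test of WRF against C rats gave p = 0.000758 before adjustment. Its relation to the T cell markers was not tested.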
